A study of Mus musculus with 6 samples.

Results

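The genes described here encode the proteins of the mitochondrial ribosome, and they were taken as every listed gene whose symbol starts with *Mrpl* or *Mrps* followed by a number. There were 76 such genes among the 13003 genes listed, 47 named for the large subunit (*Mrpl*) and 29 for the small subunit (*Mrps*). The rule used symbols only and no measured value. RNA-seq libraries came from ventricular myocardium of 3 WT mice (replicates 1, 3 and 4 of the labels) and 3 *Dst-b* mutant mice (replicates 1, 2 and 3), with 1 library per mouse. The mutant mice were homozygous for a nonsense allele in an exon that only the muscle isoform of dystonin uses, on a C57BL/6J background, and were bred from heterozygous parents. The allele was made by genome editing and leaves a truncated protein, and the mutant mice were aged 14 to 19 months with WT mice of matched age. The study kept several lines of this allele and used both sexes, and the line and sex behind each library are not given. It left *Xist*, *Tsix* and *Bmp10* out of its changed genes because of extreme values in 1 mouse, which it does not name. The comparison asks how RNA in old hearts changes when this cytoskeletal linker is cut short.

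Mitochondria carry their own ribosomes, which make the few respiratory chain proteins that mitochondrial DNA encodes. All of the proteins of these ribosomes are encoded in the nucleus, made in the cytosol and imported, while their ribosomal RNA comes from mitochondrial DNA. Part of the proteins have counterparts in bacterial ribosomes and the others exist only in mitochondria. Heart muscle depends on oxidative phosphorylation and is rich in mitochondria. Structures of the mammalian ribosome place the products of *Mrps30* and *Mrps18a* in the large subunit, and the product of *Mrps36* is now counted as a subunit of the oxoglutarate dehydrogenase complex. Grouped in that way, 49 of the 76 genes belong to the large subunit (29 listed with a bacterial counterpart, 20 without), 26 to the small subunit (16 and 10) and *Mrps36* to neither. The split by bacterial counterpart follows the list used here, which puts *Mrpl47* among the 20, a placement that is doubtful.

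Depth was 40693854 to 57580110 tags per library, and a member had between 85 and 21035 tags in a library. Levels are given as CPM, counts scaled to a common library size, after TMM scaling, a correction for library composition, and as RPKM, which also divides by the length of the exon model, where genes are compared with each other. *Dst* itself, counted over all isoforms, stood at 473, 423 and 448 CPM in WT replicates 1, 3 and 4 and 417, 457 and 414 CPM in mutant replicates 1, 2 and 3 and was not called, so its level does not check the genotype labels. The labelled tissue showed its defining markers. The 7 cardiomyocyte markers (*Myh6*, *Tnnt2*, *Actc1*, *Tnni3*, *Myl2*, *Ryr2* and *Pln*) summed to 89307.8 to 100219.9 CPM, and 3 myosin genes of skeletal muscle (*Myh1*, *Myh2* and *Myh4*) were not among the genes listed. The libraries were less even in the 4 atrial markers, which summed to 231 to 1091.6 CPM in WT and 885 to 1023.5 CPM in mutant mice. *Nppa*, which stressed ventricles also express, made up most of these sums, at 119, 671 and 144 CPM in WT replicates 1, 3 and 4 and at 877, 926 and 639 CPM in mutant replicates 1, 2 and 3. *Myl7* stood at 48.7, 144 and 58.1 CPM against 13.9, 41.7 and 88.6 CPM. *Myl7*, *Myl4* and *Sln* had negative log2 fold changes (-0.80 to -0.71) and were not called. For each of them WT replicate 3 had the highest level of all mice and mutant replicate 3 the next highest. In a tissue with several cell types, fewer cells of a type and less RNA per cell cannot be told apart.

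Of the 76 members 3 passed the test between mutant and WT hearts, *Mrpl14* and *Mrps28* lower and *Mrps23* higher. A gene was called at p under 0.01 with an adjusted p under 0.1 by the two-sided quasi-likelihood test of edgeR, with Benjamini-Hochberg adjustment over the 12955 genes tested. All 76 members were among these. Over all genes tested, 4.64% were called, 2.80% higher and 1.84% lower, and the members' 3 calls are a share of that order.

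*Mrpl14* encodes a large subunit protein at the face that meets the small subunit, with a counterpart in bacteria. It stood at 93.2, 101 and 94.8 CPM in WT replicates 1, 3 and 4, and at 69.7, 73.3 and 74.7 CPM in mutant replicates 1, 2 and 3. Every mutant mouse lay below every WT mouse. The mean fell by 24.6%, from 96.2 ± 3.99 to 72.6 ± 2.59 CPM (SD, n = 3 mice per genotype). On the log2 scale the change was -0.41 ± 0.07 (SE) at an adjusted p of 0.0127 by edgeR, and *Mrpl14* was called after leaving out any of the 6 libraries.

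*Mrps28* encodes a small subunit protein related to the bacterial ribosomal protein S1. Its levels were 62.7, 61.9 and 64.4 CPM in WT replicates 1, 3 and 4, and 43.4, 45.9 and 53.0 CPM in mutant replicates 1, 2 and 3. The 3 WT mice lay close together, and the mutant mouse nearest to them was replicate 3. The log2 change was -0.41 ± 0.08 (SE) at an adjusted p of 0.0329 by edgeR. Without mutant replicate 1 *Mrps28* was not called (log2 change -0.35, adjusted p of 0.169 by edgeR, the highest of the alternatives, which went down to 5.58e-04).

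*Mrps23* encodes a small subunit protein with no bacterial counterpart. It stood at 152, 153 and 154 CPM in WT replicates 1, 3 and 4, and at 188, 176 and 192 CPM in mutant replicates 1, 2 and 3. This was the largest rise among the members (log2 change 0.27 ± 0.06 SE, adjusted p of 0.0432 by edgeR), with no overlap between the groups. The call was lost without WT replicate 1, WT replicate 3, mutant replicate 1 or mutant replicate 3, with adjusted p from 0.104 to 0.190 by edgeR and log2 fold changes of 0.25 to 0.27. The study names *Mrpl14* and *Mrps28* from these libraries in a list of lower genes for the mitochondrion, so their direction here is not independent evidence.

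RefSeq promoter windows of GRCm38.p6, 250 bases before to 50 bases after a start, were at hand for 67 of the 76 members. The bases before the start of *Mrpl14* and of *Mrps23* are shown because these were the called members with a window, 1 in each direction. The first lies at chr17:45686099-45686348 on the plus strand, and its capitals mark the GC box GGGCGG in either orientation.
Mrpl14: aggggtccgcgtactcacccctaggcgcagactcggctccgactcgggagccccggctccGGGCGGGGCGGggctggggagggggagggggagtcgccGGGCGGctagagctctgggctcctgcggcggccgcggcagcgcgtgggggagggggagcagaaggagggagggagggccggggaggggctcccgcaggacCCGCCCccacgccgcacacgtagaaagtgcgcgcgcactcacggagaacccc
The second lies at chr11:88204138-88204387 on the plus strand and holds none of the motifs searched, so it has no capitals.
Mrps23: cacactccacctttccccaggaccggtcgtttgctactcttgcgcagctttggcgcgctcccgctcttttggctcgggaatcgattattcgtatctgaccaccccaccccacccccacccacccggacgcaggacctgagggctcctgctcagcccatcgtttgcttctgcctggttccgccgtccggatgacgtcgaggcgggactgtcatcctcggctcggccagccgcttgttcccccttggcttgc
The window of *Mrpl14* was 77.2% G and C before the start, and that of *Mrps23* 64.0%. Just after the start, *Mrpl14* held a match to the NRF1 motif and *Mrps23* a match to the ETS motif, in capitals here.
Mrpl14 at the start: cccctggcGCGCAGGCGcagcgtgc
Mrps23 at the start: cgcttccgCTTCCGGtaacagcc
NRF1 and the ETS family factor GABP, also called NRF2, are known activators of nuclear genes for mitochondria, and YY1 binds many promoters of this kind. Over both strands, the NRF1 motif GCGCANGCG was in a window of 22.4% of the 67 members, against 15% of 10298 tested genes with a window and 7.03% of all 27025 genes. The ETS motif CCGGAAG was in 35.8% of the members, against 19.5% and 9.93%. The YY1 motif AAGATGGCG was in 11.9%, against 3.52% and 1.64%, and the GC box in 49.3%, against 68.2% and 38.2%. A match describes letters and does not show that a factor binds there.

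**Figure D1:**
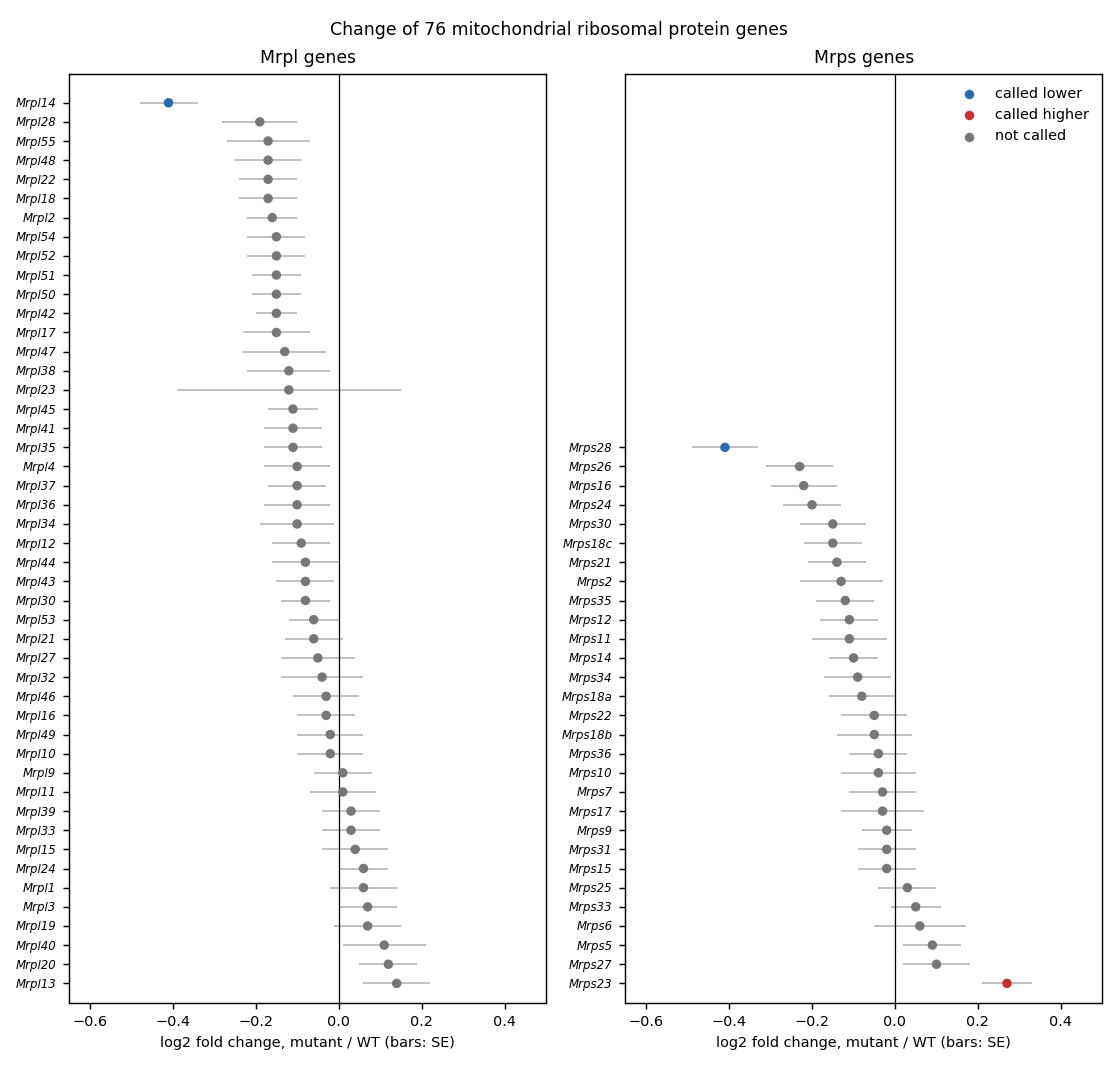
Log2 fold change, mutant against WT, of each of the 76 members with its standard error, the 47 *Mrpl* genes on the left and the 29 *Mrps* genes on the right; blue and red points passed the test as lower and higher, grey points did not. *Mrpl14* and *Mrps28* stand apart at -0.41 and *Mrps23* at 0.27, and most other members lie between 0 and -0.20.

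The other members had small log2 fold changes, more of them negative than positive. The median over the 76 members was -0.08, against 0.00 over all genes tested, and 58 members were negative and 18 positive. Over all genes tested 50% were negative. The range was -0.41 to 0.27. In 17 members, 22.4%, every mutant mouse lay below every WT mouse, against 10.5% of all genes tested, and in 3 members, 3.95%, every mutant mouse lay above, against 11.4%. Besides *Mrps23* the latter were *Mrpl20*, at 76.2, 68.7 and 76.7 CPM in WT replicates 1, 3 and 4 and 80.2, 77.5 and 83.8 CPM in mutant replicates 1, 2 and 3, and *Mrpl24*, at 81.2, 80.8 and 78.0 CPM against 82.1, 84.5 and 84.3 CPM. Neither was called (adjusted p of 0.423 and 0.659 by edgeR). At an unadjusted p under 0.05 there were 11 negative members and 1 positive, where 7.85% and 8.70% of all genes tested passed in those directions. Within a genotype the members varied little from mouse to mouse, with a median coefficient of variation of 5.71%, against 9.12% over all genes tested. This was not particular to them. It was 3.9% over 36 genes of respiratory complex I and 6.09% over 77 cytosolic ribosomal protein genes, and the genes compared were not matched for level.

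Of the members at an unadjusted p under 0.05 that were not called, 3 belong to the small subunit. *Mrps26*, a protein found only in mitochondria, stood at 36.0, 34.7 and 36.9 CPM in WT replicates 1, 3 and 4 and at 28.4, 30.4 and 32.8 CPM in mutant replicates 1, 2 and 3. *Mrps16*, a core protein with a bacterial counterpart that is mutated in a human mitochondrial disease, stood at 56.4, 63.8 and 62.9 CPM against 54.0, 49.4 and 53.6 CPM. *Mrps24*, the counterpart of bacterial S3 near the entry of the mRNA, stood at 105, 105 and 108 CPM against 84.9, 93.7 and 97.6 CPM. In each of them the WT and mutant mice did not overlap, and the adjusted p was 0.173 to 0.177 by edgeR. By DESeq2 *Mrps24* was called lower (adjusted p of 0.0968, against up to 0.509 under the other alternatives).

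The other 6 belong to the large subunit. *Mrpl42*, the member with the highest level per length, had 383, 393 and 394 CPM in WT replicates 1, 3 and 4 and 339, 358 and 360 CPM in mutant replicates 1, 2 and 3. *Mrpl2*, whose bacterial counterpart lies close to the peptidyl transferase centre, had 105, 105 and 102 CPM against 97.4, 88.3 and 95 CPM. *Mrpl18*, of the family that binds 5S RNA in bacteria, had 142, 149 and 166 CPM against 133, 135 and 138 CPM. *Mrpl42*, *Mrpl2* and *Mrpl18* did not overlap between genotypes, with log2 fold changes of -0.15 to -0.17. *Mrpl22*, of the family that lines the exit tunnel, had 46.5, 50.6 and 51.4 CPM in WT replicates 1, 3 and 4 against 43.9, 41.4 and 46.5 CPM in mutant replicates 1, 2 and 3, and WT replicate 1 met mutant replicate 3. *Mrpl50*, found only in mitochondria, had 59.4, 61.8 and 62.6 CPM against 53.2, 56.9 and 55.2 CPM. *Mrpl51*, also found only in mitochondria, had 170, 155 and 160 CPM against 141, 145 and 152 CPM. Both had a log2 fold change of -0.15 without overlap. The counts of *Mrpl42* and *Mrpl22* may include reads of near-identical pseudogenes. The adjusted p of these 6 was 0.216 to 0.283 by edgeR, so none of them passed.

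**Figure D2:**
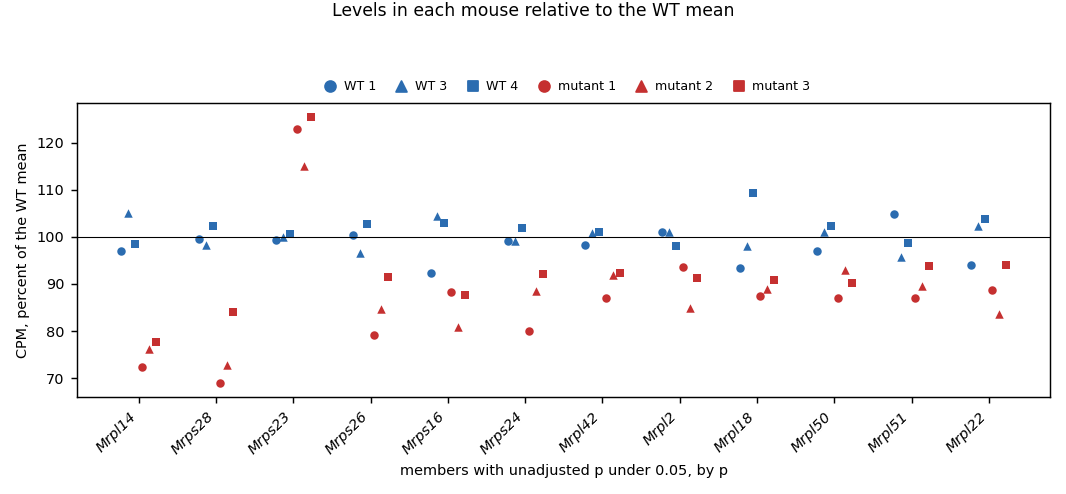
CPM of the 12 members with an unadjusted p under 0.05 in each of the 6 mice, as a percent of the gene's WT mean, ordered by p; blue is WT, red is mutant, and the marker shape gives the mouse. The mutant means of *Mrpl14* and *Mrps28* lie lowest and that of *Mrps23* highest, and for *Mrps28*, *Mrps26* and *Mrps24* mutant replicate 3 lies nearest to WT.

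The tilt of the members was not the same in all 3 mutant mice. Summed over the 76 members, the level was 6067.0, 6082.9 and 6219.3 CPM in WT replicates 1, 3 and 4, and 5759.7, 5686.2 and 6092.6 CPM in mutant replicates 1, 2 and 3. Mutant replicate 3 lay inside the WT range, so the groups overlapped. The mean sum was 6123.1 ± 83.7 CPM for WT and 5846.2 ± 217 CPM for mutant mice (SD over 3 mice per genotype). Against the WT mean of each gene, 54, 63 and 44 of the 76 members were lower in mutant replicates 1, 2 and 3. The same count was 45, 39 and 24 in WT replicates 1, 3 and 4.

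Both subunits had a negative median. The median log2 fold change was -0.09 over the 49 genes of the large subunit and -0.05 over the 26 genes of the small subunit, with 37 and 20 negative. By origin as listed, the median was -0.06 for the 29 large subunit genes with a bacterial counterpart and -0.11 for the 20 without one. It was -0.11 for the 16 small subunit genes with a counterpart and -0.04 for the 10 without one. The large subunit values rest on the doubtful placement of *Mrpl47* among the 20. The summed CPM of the large subunit was 2.35 to 2.41 times that of the small subunit in WT mice and 2.32 to 2.34 times in mutant mice. *Mrps36*, which belongs to neither subunit, stood at 85.8, 95.3 and 84.3 CPM in WT replicates 1, 3 and 4 and at 81.7, 88.4 and 87.2 CPM in mutant replicates 1, 2 and 3, with overlap.

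Across the whole data set short genes had more negative values than long ones, and 41 of the 76 members have a short exon model. Among all genes tested with an exon model under 1200 bases, 1308 in number, the median log2 fold change was -0.06 and 63.4% were negative. Among the longer genes it was 0.01 and 48.5%. The 41 short members had a median of -0.11 with 35 negative, and the 35 longer ones a median of -0.03 with 23 negative. Every mutant mouse lay below every WT mouse in 26.8% of the short members, against 18.9% of all short genes tested. For the longer ones these shares were 17.1% and 9.61%. Every mutant mouse lay above in 4.88% against 5.35% of the short, and in 2.86% against 12.1% of the longer ones. Across the 76 members the log2 fold change and the log2 exon length had a Pearson correlation of 0.34 (Spearman 0.34), and across all genes tested 0.09 (Spearman 0.13). Genes of 1 library share its preparation and depth, so these are descriptions. The part of length in the members' tilt was not tested.

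Several markers of vessel cells were called lower. All 6 endothelial markers had negative log2 fold changes (-0.35 to -0.14), with *Egfl7* and *Tie1* called lower, and their sum was 1047.8 to 1192.2 CPM in WT and 934 to 1062.2 CPM in mutant mice. Of the 6 smooth muscle and pericyte markers *Kcnj8*, *Rgs5* and *Pdgfrb* were called lower. The others, *Myh11*, *Cnn1* and *Tagln*, were not called, at log2 fold changes of -0.05, -0.04 and -0.00. The sum of the list was 557 to 598 CPM in WT and 406 to 508 CPM in mutant mice. In it *Rgs5* had the highest level, at a mean of 319 CPM in WT and 227 CPM in mutant mice. The cardiomyocyte markers had a median log2 fold change of -0.04 with 1 of 7 called (*Actc1*, higher), and of the 7 fibroblast markers 1 was called (*Col1a1*, higher). None of the 5 macrophage, 4 adipocyte, 4 atrial and 3 skeletal muscle markers tested was called. The part of cell makeup in the members' values was not tested.

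**Figure D3:**
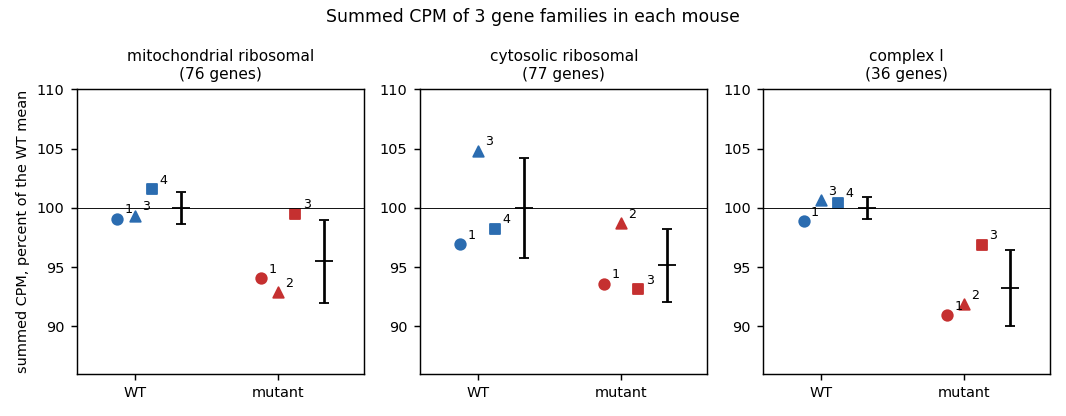
Summed CPM of the 76 mitochondrial ribosomal protein genes, 77 cytosolic ribosomal protein genes and 36 complex I genes in each mouse, as a percent of the WT mean of that family; numbers are replicate labels, and the black bar is the mean ± SD of 3 mice. For the mitochondrial ribosome mutant replicate 3 lies among the WT mice, and for complex I all 3 mutant mice lie below all 3 WT mice.

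Genes of complex I, the first enzyme of the respiratory chain, had a more negative median than the members, and cytosolic ribosomal protein genes a less negative one. Over 36 complex I genes the median log2 fold change was -0.10, 32 were negative and 3 were called lower, and in 17 of them every mutant mouse lay below every WT mouse. Over 77 cytosolic ribosomal protein genes the median was -0.04, 55 were negative, and only the paralogues *Rpl3* (higher) and *Rpl3l* (lower) were called. The differences between the families were not tested.

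Genes that act with the mitochondrial ribosome mostly did not pass the test. Of 7 ribosomal subunits with other names none was called, and their median log2 fold change was -0.12. *Ict1*, a large subunit protein that releases stalled peptides and is now named Mrpl58, had the smallest p, at 75.1, 73.8 and 81.7 CPM in WT replicates 1, 3 and 4 and 62.8, 64.1 and 70.4 CPM in mutant replicates 1, 2 and 3 (log2 fold change -0.22, adjusted p of 0.165 by edgeR). The next was *Aurkaip1*, a protein of the small subunit, at a log2 fold change of -0.12 (adjusted p of 0.418 by edgeR).

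Of 25 assembly factors 1 was called higher, and the median log2 fold change was -0.02. *Ybey*, an endoribonuclease needed for the small subunit, stood at 5.60, 4.58 and 4.13 CPM in WT replicates 1, 3 and 4 and at 7.04, 7.86 and 6.96 CPM in mutant replicates 1, 2 and 3 (log2 change 0.61 ± 0.16 SE, adjusted p of 0.0841 by edgeR). This call was lost without any 1 of WT replicate 3, WT replicate 4 and the 3 mutant libraries (adjusted p 0.159 to 0.235 by edgeR). None of 14 translation factors was called, with *Guf1* (log2 fold change 0.13) and *Gfm2* (-0.11), both elongation factor relatives, at the smallest p. None of 10 genes of mitochondrial transcription and DNA was called, with *Polg* (0.11), the mitochondrial DNA polymerase, and *Ssbp1* (0.09), its single-strand binding partner, at the smallest p. Nor was any of 14 genes of protein import and mitochondrial mass, where the chaperonin genes *Hspd1* (0.12) and *Hspe1* (0.09) had the smallest p. The median log2 fold changes of these 3 lists were -0.01, 0.05 and 0.02.

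Of 12 regulators of nuclear genes for mitochondria, *Myc* was called higher, at 3.33, 2.93 and 1.97 CPM in WT replicates 1, 3 and 4 and at 4.76, 5.52 and 5.46 CPM in mutant replicates 1, 2 and 3 (log2 change 0.93 ± 0.22 SE, adjusted p of 0.0584 by edgeR). The call of *Myc* was lost without WT replicate 3, WT replicate 4 or any 1 mutant library (adjusted p 0.107 to 0.164 by edgeR). The median of the list was 0.01, and the other 11, among them *Nrf1*, *Gabpa*, *Ppargc1a* and *Esrra*, were not called.

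The members differed more from each other in level than between genotypes. By mean WT RPKM they spanned a 128-fold range. The highest were *Mrpl42* at 667 ± 11.1 RPKM, *Mrpl30* at 501 ± 8.05, *Mrps21* at 287 ± 19.5, *Mrpl12* at 267 ± 21.6 and *Mrpl14* at 161 ± 6.96 RPKM (SD, n = 3 WT mice). *Mrpl12* encodes the stalk protein that also binds the mitochondrial RNA polymerase. The lowest were *Mrps22* at 8.24 ± 0.581, *Mrps2* at 7.54 ± 0.796, *Mrpl19* at 6.08 ± 0.251, *Mrpl17* at 5.44 ± 0.405 and *Mrpl23* at 5.22 ± 1.03 RPKM. Of these 5 low members, 4 had exon models of 2529 to 6643 bases, against 439 to 949 bases for the 5 highest, and RPKM divides by this length. Of the 75 pairs of neighbours in the WT order, 14 did not overlap between WT mice, so the order is not resolved gene by gene.

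*Mrpl23* had a short exon model of 582 bases and only 3.58, 3.18 and 2.40 CPM in WT replicates 1, 3 and 4 and 1.81, 3.21 and 3.43 CPM in mutant replicates 1, 2 and 3. A processed pseudogene, Mrpl23-ps1, matched a transcript of *Mrpl23* at 100% identity over 85.9% of its length. In 5 other members a pseudogene transcript matched at 95% identity or more over at least 50% of the length, namely *Mrps10*, *Mrps21*, *Mrpl22*, *Mrpl27* and *Mrpl42*. How reads that fit both places were counted is not stated, and the levels of these 6 members are uncertain for that reason.

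**Figure D4:**
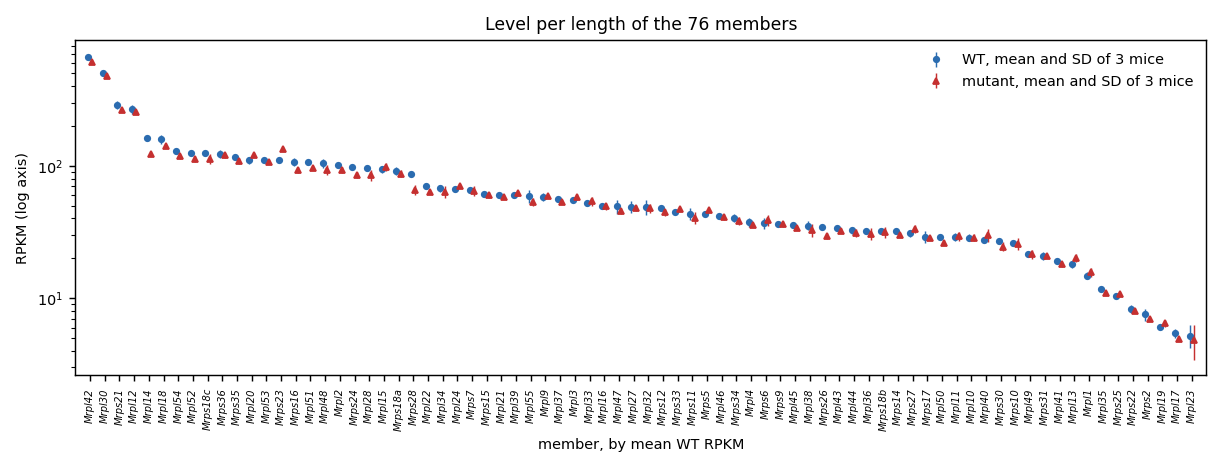
Mean RPKM with SD of 3 mice for the 76 members in WT (blue circles) and mutant (red triangles) hearts on a log axis, ordered by WT mean. The order runs from *Mrpl42* at 667 to *Mrpl23* at 5.22 RPKM in WT, and the genotypes lie close together at nearly every gene, with *Mrpl14*, *Mrps28* and *Mrps23* visibly apart.

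The members lie on 17 chromosomes of GRCm38, with 10 on chromosome 11 and 8 on chromosome 17. On this build *Mrpl14* lies on chromosome 17 from 45685722 to 45698495 on the plus strand, *Mrps28* on chromosome 3 from 8802146 to 8923857 on the minus strand and *Mrps23* on chromosome 11 from 88194106 to 88211507 on the plus strand. The promoter windows shown above follow 1 start site each, which for *Mrpl14* and *Mrps23* lies inside these spans. In 51 of the 76 members no exon base was shared with another gene of the GENCODE basic set, *Mrpl14*, *Mrps28* and *Mrps23* among them. These are GENCODE exons, which can differ from the exon models of the counts. For *Mrpl13* they span 1223 bases against 6652 in the exon model. Overlap of the counted models themselves was not examined. In 10 members at least 20% of the exon bases were shared with another gene, such as 58.2% of *Mrps25* with *Nr2c2* on the opposite strand and 38.2% of *Mrpl24* with *Rrnad1*, and the values of these 10 are uncertain. For *Mrpl53*, *Mrps6* and *Mrpl33* the other gene lies on the same strand, and for the remaining 7 it lies on the opposite strand, where it matters whether counting used strand, which is not stated.

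Members often faced another gene head to head. In 32 of the 76 members, 42.1%, the start lay within 1000 bases of the start of a protein-coding gene on the opposite strand, against 15.8% of 12459 tested genes found in GENCODE. Of the 29 such neighbours that were tested, 13 were negative together with their member, counting the pair of *Mrpl46* and *Mrps11*, which face each other, from both sides. Since 76.3% of the members and 50% of all genes tested were negative, many such pairs arise without any link. A link between neighbours was not tested. *Mrpl14* faces *Tmem63b*, which encodes a stretch- and osmolarity-sensitive cation channel, and their 5′ ends overlap by 583 bases. *Tmem63b*, chosen after its values were seen, was called lower too, at 163, 163 and 182 CPM in WT replicates 1, 3 and 4 and 116, 134 and 139 CPM in mutant replicates 1, 2 and 3 (log2 fold change -0.38, adjusted p of 0.0416 by edgeR). Without WT replicate 4 or mutant replicate 1 it was not called (adjusted p of 0.110 and 0.173 by edgeR).

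*Mrps12*, which encodes a protein of the decoding centre, faces *Sars2*, the mitochondrial seryl-tRNA synthetase, at 172 bases. *Mrps12* stood at 32.4, 32.8 and 33.4 CPM in WT replicates 1, 3 and 4 and 32.2, 29.4 and 29.8 CPM in mutant replicates 1, 2 and 3, and was not called (log2 fold change -0.11, adjusted p of 0.5 by edgeR). *Sars2*, also chosen after its values were seen, stood at 16.0, 20.3 and 21.3 CPM against 11.9, 14.0 and 14.5 CPM and was called lower (log2 fold change -0.51, adjusted p of 0.0774 by edgeR), but only with all libraries or without WT replicate 1.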

How the data were processed

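Poly-A RNA of 6 hearts was sequenced as paired-end reads, which the authors mapped to GRCm38/mm10 with OLego and counted with Quantas. Per gene and library the deposited values were tags, which are estimated counts, with RPKM and exon length. The files are titled CPM, but tags were not scaled to depth and were therefore tested as counts. In 8.45% to 13.8% of the genes of a library tags were not whole, and they were rounded. RPKM served only for levels. The labels name a directional library kit and the methods another, and a strand setting for counting is not given in the sources used here.

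Genes that reached 1 CPM in 3 or more libraries were tested with edgeR 4.0.16 in R 4.3.3 (TMM, glmQLFit, glmQLFTest, genotype as the only term). Positions came from RefSeq and GENCODE M21 of GRCm38, copies from blastn. Members and lists were chosen with earlier results of these data known. Named were every member with p under 0.05, the members that the paper names, the 5 highest and 5 lowest by WT RPKM, the largest rise and fall, and in related lists the called genes or the 2 smallest p. The test was also run on simulated counts with the means and dispersions fitted to these data. It recovered 68% of 100 changes of 1.5-fold and 99% of 100 changes of 3-fold, with 10 false calls among 12955 genes. Both folds are larger than the change of any member, and recovery of smaller changes was not simulated. A gene that was not called is therefore not shown to be unchanged. Alternatives were other scalings and filters, DESeq2 1.42.0, edgeR's exact test, limma 3.58.1, an adjusted p under 0.05, each library left out and a replicate block.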

Additional observations from a re-analysis of the deposited data

How the results depend on the processing

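*Mrpl14* and *Mrps28* were lower and *Mrps23* higher in the mutant hearts under all 16 alternatives. The other 9 members at an unadjusted p under 0.05 and *Ybey*, *Sars2* and *Tmem63b* also kept their direction, as did *Myc*, which a mean CPM of at least 5 leaves out. The other named genes were not followed one by one. An adjusted p under 0.05 keeps the main fit, so no direction could differ there. The other alternatives refit the same mice, and the genes followed were named with their values in these mice known. A kept direction is therefore not independent evidence. Both counts of called members, 1 higher and 2 lower, stayed within 1.5 times under other scalings and filters, the exact test, limma, DESeq2 (3 lower, with *Mrps24*), an adjusted p under 0.05 and the replicate block. Leaving out 1 library each time gave 0 to 1 members higher, 1 to 2 lower and 141 to 489 genes called in all, fewest without mutant replicate 1. The number of all genes called was 601 with all libraries, 1028 by DESeq2, 304 at an adjusted p under 0.05 and 966 with the replicate block; the cause of the differences between tools was not tested. The median log2 fold change of the members was -0.082. Under the other settings with all libraries and no block it ran from -0.084 to -0.068. With 1 library left out it ran from -0.102 to -0.059. The replicate block gave -0.044, with 46 negative members in place of 58. In the block fit WT replicate 4 and mutant replicate 2 each stand alone in a block and add nothing to the genotype contrast. That contrast rests on replicates 1 and 3 of each genotype. The genotypes share only replicate numbers 1 and 3, whose deviations from the group means correlated at 0.00724 and -0.0492, so the numbers were not taken to pair mice. Under the block *Ybey* (adjusted p of 0.274 by edgeR) and *Myc* (0.14) were not called. The range of levels was 128-fold as TPM too. TPM here rescales all RPKM of a library by 1 factor, so this range could hardly differ and is no separate check.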
